A study of Mus musculus with 30 samples.

Results

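Map1a, Ecm1, Slc37a1 and Eepd1 are 4 of the 55487 genes counted in 30 mouse hearts. They were selected on measured values, because their response to pressure overload differed between hearts labelled Cpt1a knockout and floxed hearts. Their values in those hearts are therefore a description. The adjusted p-values and calls of that cohort are given only to show how the choice was made. In the overloaded knockout hearts, Map1a, Ecm1 and Slc37a1 were higher than in each of the 12 other hearts of that cohort, as 3.79% of genes were. Eepd1 was lower there than in each of those 12 hearts, as 3.78% of genes were. A second cohort, given saline or a vector labelled as carrying Cpt1a, took no part in the choice. There edgeR called none of the 4 genes in any of 6 comparisons, in which it called 0.00635% to 0.908% of all genes. DESeq2 called 1 or 2 of the 4 genes in 4 of the 6, where it called 35 to 712 of 15745 genes.

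The genes encode proteins of different compartments. Map1a is a large microtubule-associated protein, best known from neurons, where it binds and stabilises microtubules. Ecm1, extracellular matrix protein 1, is a secreted glycoprotein that binds matrix components, and in the liver it is known to hold latent TGF-beta inactive. Slc37a1 is a transporter of the endoplasmic reticulum that exchanges glucose 6-phosphate for phosphate. Eepd1 carries an endonuclease/exonuclease/phosphatase domain and is known both from the repair of stressed replication forks and as a liver X receptor target that aids cholesterol efflux from macrophages. Cpt1a, the gene that was manipulated, encodes an outer mitochondrial membrane enzyme that commits long-chain fatty acids to entry into the mitochondrion, and the adult heart relies mainly on its relative Cpt1b.

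Tissue was collected 8 weeks after surgery, which was either sham or transverse aortic constriction (TAC), where a clip narrows the aortic arch and raises the load on the left ventricle. The floxed cohort held CPT1a floxed mice after sham (FF_sham) or TAC (FF_TAC) and mice labelled cardiac specific CPT1a knockout after sham (KO_sham) or TAC (KO_TAC), with 4 hearts in each group. The AAV9 cohort held C57Bl/6 mice given PBS before sham (PBS_sham, 3 hearts) or TAC (PBS_TAC, 3 hearts), or the cardiac-tropic vector AAV9.Cpt1a, driven by a cardiac troponin T promoter per the series' design text, before sham (AAV_sham, 4 hearts) or TAC (AAV_TAC, 4 hearts). The design text speaks of knockdown where the labels say knockout; the driver of the deletion, the age and sex of the mice and the clip used for each mouse are not given in the sources used here. Both clip sizes of the protocol may therefore be mixed within a TAC group. All floxed-cohort mice carry the floxed Cpt1a allele, and the AAV9 cohort has no group with an empty vector, so the vector and what it carries cannot be told apart. Nothing says that the hearts of a group came from separate litters or surgery days, and p-values measure the spread between these hearts only.

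The sequences before the 4 transcription starts are shown because the genes were chosen for moving in the same hearts, and a reader may ask what their promoters share. Each run is the 250 bases before the RefSeq start on GRCm38.p6, 5′ to 3′ on the strand of the gene. The windows are chr2:121289352-121289601 (plus strand) for Map1a, chr3:95739570-95739819 (minus strand) for Ecm1, chr17:31295974-31296223 (plus strand) for Slc37a1 and chr9:25481347-25481596 (plus strand) for Eepd1. For Slc37a1 the annotations differ on the start: its window lies inside the GENCODE gene, which begins at chr17:31286792. The Slc37a1 window also lies within the pseudogene AC154652.2 (chr17:31293121-31296689, minus strand). The last bases of the Eepd1 and Map1a windows lie inside their GENCODE genes too, which begin at chr9:25481547 and chr2:121289600. Capitals mark matches on either strand to 11 short motifs.
Map1a: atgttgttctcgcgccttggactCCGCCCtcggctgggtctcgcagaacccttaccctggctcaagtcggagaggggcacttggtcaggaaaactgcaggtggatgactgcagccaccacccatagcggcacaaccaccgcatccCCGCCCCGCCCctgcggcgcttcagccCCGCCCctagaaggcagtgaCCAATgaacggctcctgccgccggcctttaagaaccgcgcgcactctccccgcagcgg
Ecm1: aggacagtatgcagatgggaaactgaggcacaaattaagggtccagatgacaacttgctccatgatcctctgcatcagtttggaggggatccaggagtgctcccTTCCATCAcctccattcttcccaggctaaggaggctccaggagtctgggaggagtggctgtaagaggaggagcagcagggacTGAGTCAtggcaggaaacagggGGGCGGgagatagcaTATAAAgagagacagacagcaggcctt
Slc37a1: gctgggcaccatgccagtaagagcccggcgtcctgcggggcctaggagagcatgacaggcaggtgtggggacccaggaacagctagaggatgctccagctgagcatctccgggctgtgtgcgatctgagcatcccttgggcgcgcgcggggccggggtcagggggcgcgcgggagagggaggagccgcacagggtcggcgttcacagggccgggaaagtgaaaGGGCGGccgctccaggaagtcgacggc
Eepd1: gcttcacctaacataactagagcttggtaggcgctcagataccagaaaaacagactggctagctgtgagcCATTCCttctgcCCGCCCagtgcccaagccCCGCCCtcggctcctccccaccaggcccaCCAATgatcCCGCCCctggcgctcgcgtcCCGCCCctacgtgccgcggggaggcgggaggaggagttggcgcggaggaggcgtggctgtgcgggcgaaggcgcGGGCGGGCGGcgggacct

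The motifs were searched on both strands over the whole 300-base window, which adds the first 50 transcribed bases. The GC box (GGGCGG) was the only motif found in all 4 windows, with 12 matches in all, some of them overlapping. It occurs in 35.7% of all promoters of that length. The window of Ecm1 differed from the others in holding a TATA box (TATAAA, 27 bases before the start, in 13.6% of promoters), an AP-1 site (TGANTCA, 64 before, 7.81%) and a C/EBP-ATF element (CARE, TGATGNAA, 146 before, 3.97%). CCAAT stood 58 bases before the start of Map1a and 121 before that of Eepd1 (37.4% of promoters). An MCAT element (CATTCC, 14.7%) stood 180 bases before the start of Eepd1. Inside the transcribed part of the Map1a window, at base 24, there was an NF-kB motif (in 0.411% of promoters). CRE (TGACGTCA, in 1.79% of promoters), E-box (CACGTG, 7.15%), the DR4 and DR1 direct repeats of AGGTCA, with 4 bases or 1 base between them (0.0152% and 0.0396%), had no match, which says only that these letters are not in these windows. Map1a, Slc37a1 and Eepd1 had GC-rich windows with 27, 30 and 32 CpG dinucleotides, against a median of 7 over all promoters, and Ecm1 had 2. Matches are a description of letters and were not tied to binding.

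In the GENCODE annotation on GRCm38, Map1a (ENSMUSG00000027254) lies on chr2:121289600-121310832, plus strand, Ecm1 (ENSMUSG00000028108) on chr3:95734147-95739569, minus strand, Slc37a1 (ENSMUSG00000024036) on chr17:31286792-31350739, plus strand, and Eepd1 (ENSMUSG00000036611) on chr9:25481547-25604110, plus strand. All 4 are protein-coding. Whether the counting used strand is not given in the sources used here, so overlapping genes were examined. Ppip5k1, an inositol pyrophosphate kinase on the opposite strand, shares 272 bases, 2.24% of the Map1a exons. It had 46.3 to 87.4 CPM in KO_TAC and a log2 fold change for TAC in knockouts of -0.04 ± 0.17 (SE), where Map1a had 1.49. The pseudogene AC154652.2 shares 964 bases (8.31%) of the Slc37a1 exons on the opposite strand and reached at most 0.159 CPM in any heart. Mir7014, within an Ecm1 exon on the same strand, had 0 counts in every library. The antisense gene Gm14978 in Map1a and the small nucleolar RNAs Gm25861 and Gm25346 in Eepd1 share 0 exon bases with them.

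Libraries held 14839758 to 22070373 counts. Levels are given in CPM, counts scaled to library size by TMM within each cohort, and differences as log2 fold changes. Cardiac muscle markers (Myh6, Tnnt2, Tnni3, Actn2, Ryr2 and Ttn) were present in all 30 hearts, with none of the 6 at 0. Cpt1a ran from 37.8 to 52.7 CPM in FF_sham and 11.1 to 19.6 in KO_TAC, but the library labelled KO_sham 2 had 46.3, against 20.3 to 23.7 in the other KO_sham hearts, and those labelled FF_TAC 2 and FF_TAC 3 stood at 20.3 and 16.2, against 48.9 and 33.99 in the rest of that group. The same 3 libraries and all 4 of KO_TAC held little haemoglobin RNA: Hbb-bs, Hbb-bt, Hba-a1 and Hba-a2 together came to 1.40 to 51.1 CPM, while the other 23 libraries had at least 293.9. Whether the labels of these 3 libraries were exchanged cannot be told from the files, and they are kept in their labelled groups in all group values. So grouped, Cpt1a in knockout against floxed sham hearts had log2 -0.68 (95% interval -1.36 to 0.002, adjusted p = 0.95 in edgeR). After TAC it had -1.07 (-1.77 to -0.38, adjusted p = 0.041). Hearts overlapped in both comparisons. In the AAV9 cohort, measured Cpt1a overlapped between vector and saline hearts, and neither vector comparison passed the test. Cpt1a was 37.4 to 68.04 CPM in PBS_sham and 56.3 to 88.4 in AAV_sham (log2 0.45, 95% interval -0.01 to 0.92, adjusted p = 0.25 in edgeR), and 40.3 to 61.6 in PBS_TAC and 44.8 to 62.7 in AAV_TAC (log2 0.05, -0.41 to 0.51, adjusted p = 0.99997). Whether RNA from the vector was counted under Cpt1a is not given in the sources used here, so the groups are named by their labels below. Since no FF_sham heart lies under 100 CPM and no KO_TAC heart above it, the genotype-dependent response cannot be computed within either set, and the contrasts of the floxed cohort and the counts of gene lists for TAC in knockouts are also given without these 3 libraries.

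The quantity used to choose the genes was the genotype-dependent TAC response, the TAC effect in knockouts minus that in floxed hearts. By edgeR (quasi-likelihood, p-values adjusted after Benjamini and Hochberg), 7 of 15596 genes (0.0449%) had an adjusted p under 0.05, and the 4 genes are among them by choice. The others are Vat1, Helt and Nt5c1a. The 4 genes sit just inside that threshold at 0.0493, and Nt5e and Pdpr, the next genes, just outside it at 0.0634. The log2 difference between the 2 TAC effects was 1.73 ± 0.28 (SE) for Map1a, 1.24 ± 0.21 for Ecm1, 1.03 ± 0.17 for Slc37a1 and -0.95 ± 0.14 for Eepd1. Without FF_TAC 2, FF_TAC 3 and KO_sham 2 these became 1.56, 1.44, 1.06 and -0.999, and with a term for low haemoglobin 1.78, 1.18, 1.02 and -0.93.

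**Figure D1:**
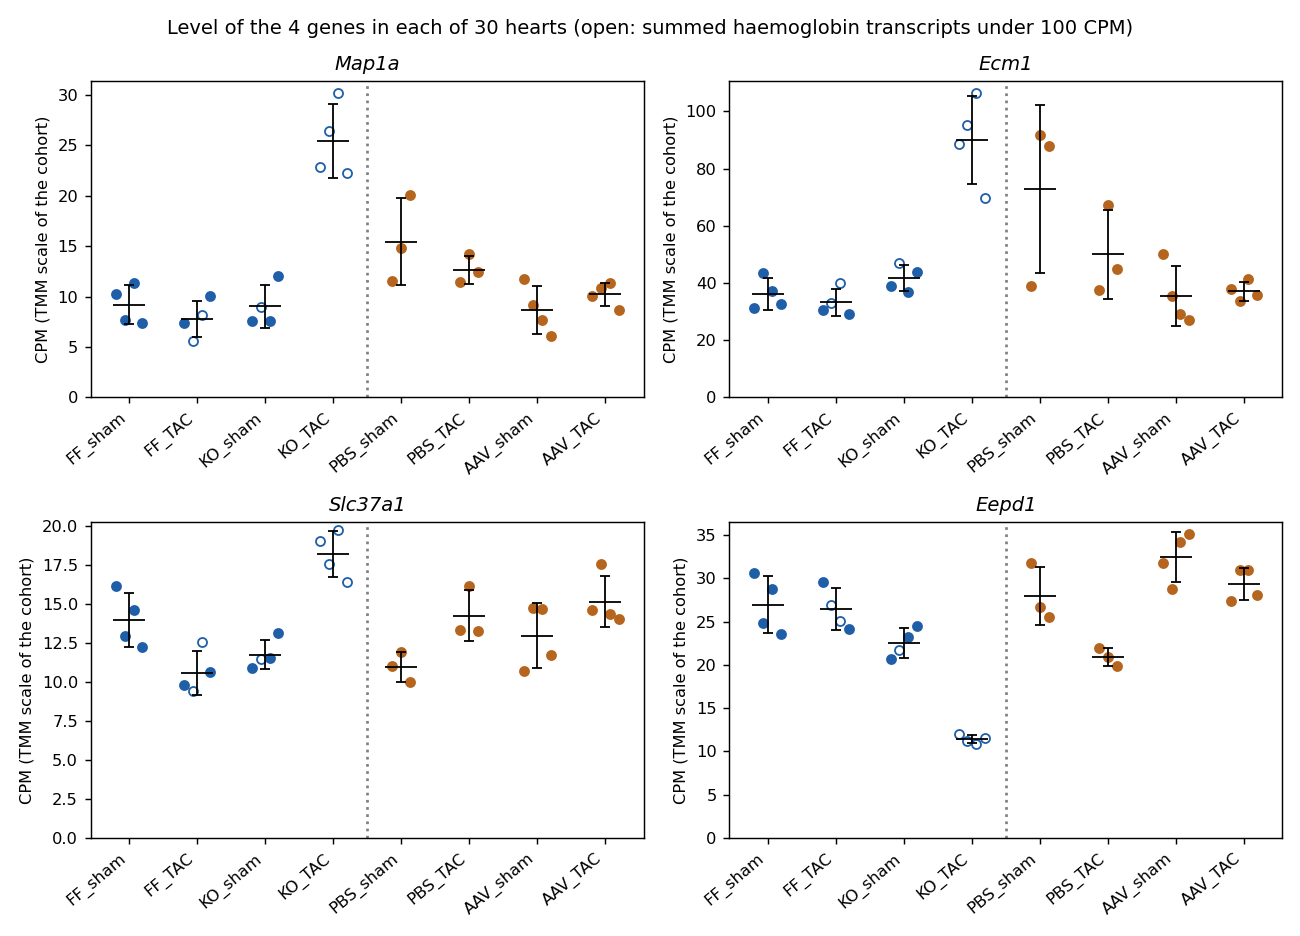
Level of Map1a, Ecm1, Slc37a1 and Eepd1 in each of the 30 hearts, in CPM from 0, by group, with the mean and SD in black; blue is the floxed cohort, brown the AAV9 cohort, and open points are libraries with summed haemoglobin transcripts under 100 CPM. The KO_TAC points lie outside the range of the other 12 floxed-cohort points in every panel, but only narrowly for Slc37a1 (16.4 against 16.1 CPM). The 3 other open points lie outside the KO_TAC range.

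Map1a was the least abundant of the 4 per length of exon, at a mean of 1.06 CPM per kb in the floxed cohort, above 28.0% of genes tested. The FF_sham hearts had 10.2, 7.69, 11.4 and 7.40 CPM, the FF_TAC hearts 7.35, 5.61, 8.16 and 10.0, and the KO_sham hearts 7.56, 8.998, 7.54 and 12.1. The KO_TAC hearts had 22.8, 26.4, 30.1 and 22.3 CPM. All of the last lie above the 12 others, and the first 3 groups overlap. TAC corresponded to 2.81-fold in knockouts (log2 1.49 ± 0.20 SE) and 0.849-fold in floxed hearts (log2 -0.24 ± 0.20).

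Map1a in the AAV9 cohort had 11.5, 14.8 and 20.0 CPM in PBS_sham, 11.4, 14.2 and 12.4 in PBS_TAC, 11.7, 9.14, 7.72 and 6.06 in AAV_sham and 10.0, 10.9, 11.3 and 8.69 in AAV_TAC. None of these hearts reached the KO_TAC range, and the highest was PBS_sham 3. TAC gave a log2 fold change of -0.29 (95% interval -0.78 to 0.20, adjusted p = 0.47) with saline and 0.24 (-0.20 to 0.67, adjusted p = 0.92) with the vector. Sham hearts had a mean of 15.4 ± 4.30 CPM with saline (SD, n = 3) and 8.67 ± 2.41 with the vector (n = 4), a log2 fold change of -0.83 that did not pass edgeR's test over all genes (adjusted p = 0.13), and the groups overlapped by 1 AAV_sham heart. DESeq2 gave an adjusted p of 0.0293 for the same difference. With 1 library left out, edgeR called it in 1 of 14 fits (adjusted p = 0.0174 without PBS_sham 1, and up to 0.337), and it was -0.60 without PBS_sham 3. Without PBS_sham 3 the TAC effect with saline was -0.054.

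Ecm1 was the most abundant of the 4 per length, at 19.9 CPM per kb, above 87.7% of genes. It stood at 31.1, 43.4, 37.3 and 32.6 CPM in FF_sham, 30.6, 33.0, 40.1 and 29.1 in FF_TAC, and 38.9, 46.9, 36.8 and 43.7 in KO_sham. In KO_TAC it stood at 88.4, 95.1, 107 and 69.7 CPM. The lowest KO_TAC heart is KO_TAC 4, and it still lies above the highest other heart, KO_sham 2. TAC corresponded to 2.16-fold in knockouts (log2 1.11 ± 0.15 SE) and 0.918-fold in floxed hearts (log2 -0.12 ± 0.15).

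Among PBS_sham hearts, Ecm1 differed widely, at 39.0, 91.8 and 88.0 CPM. It was 37.6, 67.4 and 45.0 CPM in PBS_TAC, 50.2, 35.3, 29.1 and 26.9 in AAV_sham and 37.8, 33.6, 41.5 and 35.6 in AAV_TAC. PBS_sham 2 and PBS_sham 3 thus reached the range of KO_TAC with no overload and no loss of Cpt1a. The TAC effect was -0.54 (95% interval -1.20 to 0.11, adjusted p = 0.34) with saline and 0.07 (-0.50 to 0.64, adjusted p = 0.996) with the vector. In sham hearts the vector had a log2 fold change of -1.04 (-1.66 to -0.43), with adjusted p = 0.13 in edgeR and 0.0323 in DESeq2. With 1 library left out it ran from -1.33 without PBS_sham 1, the 1 of 14 fits that edgeR called (adjusted p = 0.00903), to -0.83 without PBS_sham 2, with adjusted p-values up to 0.337. The TAC effect with saline ran from -0.84 without PBS_sham 1 to -0.34 without PBS_sham 2.

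PBS_sham 2 and PBS_sham 3 also stood apart in markers of other cells. Schwann cell and neuron markers summed to 35.96 and 39.3 CPM in them, against 5.75 to 22.6 in the other 12 hearts of the cohort. Their 4 adipocyte markers (Adipoq, Plin1, Cidec, Cfd) summed to 411 and 206 CPM, against at most 53.5 in the other 12 AAV9-cohort hearts. The 7 fibroblast markers (Dcn, Pdgfra, Col1a1, Col1a2, Col3a1, Lum, Tcf21) summed to 1891 and 1710 CPM, against 1228 in PBS_sham 1, 861 to 1418 in AAV_sham and 1271 to 1755 in PBS_TAC, so these 2 hearts do not stand alone there. In PBS_sham 3 the 6 cardiac muscle markers summed to 22248 CPM, against 42731 to 56554 in the other 13 hearts of the cohort, the 6 smooth muscle and pericyte markers to 2307 CPM, against 759 to 1066, and the 5 endothelial markers to 1233 CPM, against 718 to 936. The 5 atrial markers (Myl7, Myl4, Sln, Nppa, Bmp10) summed to 5725 CPM in PBS_sham 2, but to 779 in PBS_sham 3, near the 797 of PBS_sham 1. They summed to 3900 CPM in PBS_TAC 2, the PBS_TAC heart highest in Ecm1, and to 4176 in AAV_sham 2, which was not high in Ecm1. In whole hearts, fewer cells of a type and less RNA per cell cannot be told apart. The part of these markers in the Map1a and Ecm1 differences was not tested.

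Slc37a1, at 1.18 CPM per kb above 29.8% of genes, had the smallest separation. Its levels were 16.1, 12.9, 14.6 and 12.3 CPM in FF_sham, 9.81, 9.41, 12.6 and 10.6 in FF_TAC, 10.9, 11.5, 11.6 and 13.1 in KO_sham and 19.0, 17.6, 19.7 and 16.4 in KO_TAC. The lowest KO_TAC heart stands 16.4 against 16.1 for FF_sham 1, the highest of the rest. TAC corresponded to 1.55-fold in knockouts (log2 0.63 ± 0.12 SE) and 0.758-fold in floxed hearts (log2 -0.40 ± 0.12), so a lower mean in FF_TAC makes up part of the response that chose it.

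With saline, Slc37a1 was 11.02, 11.9 and 9.98 CPM after sham and 13.3, 16.1 and 13.3 after TAC. All 3 PBS_TAC hearts lay above all PBS_sham hearts, as 8.11% of the 15745 genes tested in this cohort did. The log2 fold change of 0.38 (95% interval 0.05 to 0.71) did not pass the test over all genes (adjusted p = 0.22). With the vector the hearts had 10.7, 14.8, 14.7 and 11.8 CPM after sham and 14.6, 17.6, 14.4 and 14.02 after TAC, which overlap (log2 0.22, -0.06 to 0.51, adjusted p = 0.81). The mean TAC effect over both injections was 0.30 ± 0.10 (SE), in the direction of the knockouts and opposite to the floxed hearts, with an adjusted p of 0.15.

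Eepd1 was the one gene of the 4 that was lower in overloaded knockouts. At 7.44 CPM per kb it stood above 71.7% of genes. The FF_sham hearts held 30.7, 24.8, 28.7 and 23.6 CPM, the FF_TAC hearts 29.6, 26.9, 25.0 and 24.2, the KO_sham hearts 20.7, 21.7, 23.3 and 24.5, and the KO_TAC hearts 12.0, 11.3, 10.9 and 11.6. The KO_TAC hearts are tightly grouped (11.4 ± 0.478 CPM, SD, n = 4) and no other heart of the 30 comes below 19.9 CPM. TAC corresponded to 0.508-fold in knockouts (log2 -0.98 ± 0.10 SE) and 0.980-fold in floxed hearts (log2 -0.03 ± 0.10).

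Eepd1 separated groups without overlap in 2 comparisons of the cohort that the choice did not use. It had 31.8, 26.7 and 25.5 CPM in PBS_sham and 22.01, 20.9 and 19.9 in PBS_TAC, so all saline TAC hearts lay below all saline sham hearts, as 6.57% of genes did. With the vector it had 31.8, 28.8, 34.2 and 35.1 CPM after sham and 27.4, 30.9, 31.0 and 28.0 after TAC, and all 4 AAV_TAC hearts lay above all 3 PBS_TAC hearts, as 4.19% of genes did. The log2 fold change for TAC was -0.42 (95% interval -0.67 to -0.17, adjusted p = 0.15) with saline, -0.15 (-0.36 to 0.07, adjusted p = 0.87) with the vector and -0.28 ± 0.08 (SE, adjusted p = 0.094) over both. In TAC hearts the vector had 0.49 (0.25 to 0.72, adjusted p = 0.32). None of these passed edgeR's test over all genes. DESeq2 gave adjusted p-values of 0.0429 for TAC with saline, 0.0233 for TAC over both injections and 0.0226 for the vector in TAC hearts. With 1 library left out, edgeR called the last 2 in 1 of 14 fits each, both without PBS_sham 3 (adjusted p = 0.0199 and 0.0379). Over all 14 fits their adjusted p-values reached 0.238 and 1.0, and their log2 values ran from -0.31 to -0.23 and from 0.45 to 0.53.

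**Figure D2:**
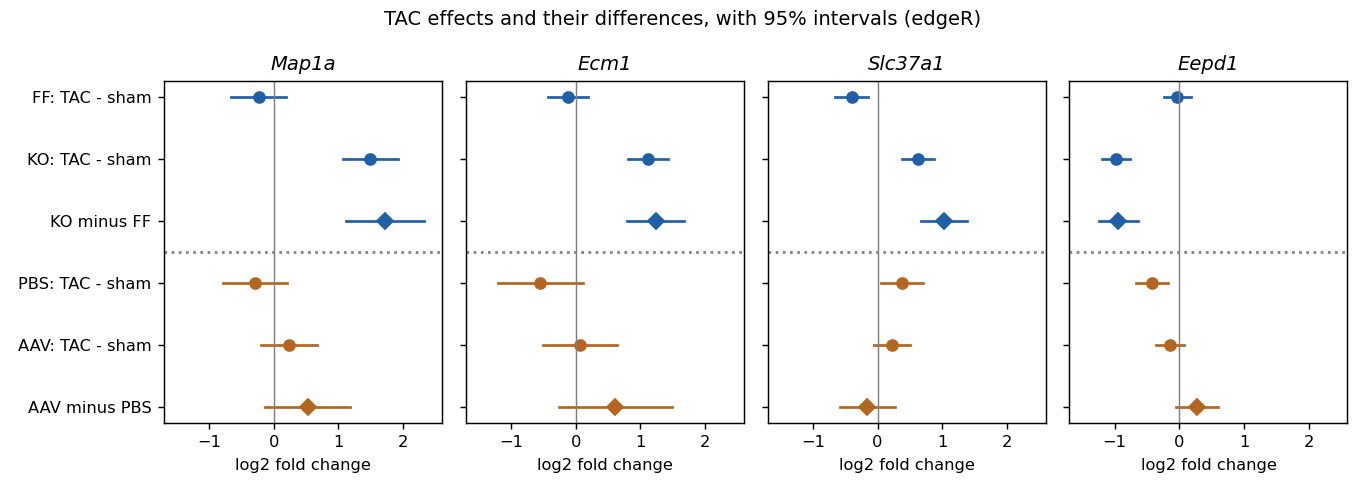
Log2 fold change for TAC against sham in floxed (FF), knockout (KO), saline (PBS) and vector (AAV) hearts (circles) and the difference between the 2 TAC effects of each cohort (diamonds), with 95% intervals from edgeR; blue is the floxed cohort, which chose the genes, and brown the AAV9 cohort. The knockout effects run from -0.98 to 1.49, the AAV9-cohort TAC effects from -0.54 to 0.38, and the AAV9-cohort differences between TAC effects from -0.16 to 0.61.

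Over the AAV9 cohort, edgeR's test called 0 of the 4 genes for TAC with saline (0.0318% of all genes called), TAC with the vector (0.00635%), TAC over both injections (0.908%), the vector in sham hearts (0.0127%), the vector in TAC hearts (0.0381%) and the vector-dependent TAC response (0.00635%). At an unadjusted p under 0.05 the counts in that order were 2, 0, 2, 2, 1 and 0 of the 4 genes, where 18.5%, 7.05%, 17.9%, 20.7%, 3.19% and 6.95% of all genes lay. DESeq2 called 1, 0, 1, 2, 1 and 0 of the 4, and 2.35%, 0.743%, 4.52%, 2.37%, 0.222% and 0.102% of all genes. Without overlap of hearts there were 0 of the 4 genes for TAC with the vector (4.9% of all genes higher, 5.79% lower) and for the vector in sham hearts (5.53% higher, 5.32% lower). In TAC hearts Map1a was lower with the vector in every heart, as 4.27% of genes were, with a log2 fold change of -0.31 (-0.77 to 0.16). The vector-dependent TAC response, which mirrors the contrast that chose the genes, was 0.52 (95% interval -0.13 to 1.18) for Map1a, 0.61 (-0.26 to 1.49) for Ecm1, -0.16 (-0.59 to 0.28) for Slc37a1 and 0.27 (-0.06 to 0.60) for Eepd1. Its adjusted p-values ran from 0.69 to 0.79. The difference between the cohorts was not tested, since strain, injection and cohort differ together.

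KO_TAC lay above the range of the 12 other floxed-cohort hearts for 3.79% of genes and below it for 3.78%, and the 4 genes are among these through the way they were chosen. All 4 were also called for TAC in knockouts, as 25.8% of genes were, with no overlap of KO_sham and KO_TAC hearts (11.1% of genes higher, 12% lower), and nothing is read from this. The part of low haemoglobin in the KO_TAC levels was not tested. The levels of the 3 haemoglobin-low hearts outside KO_TAC lay outside its range, and the highest Ecm1 of the 12 other hearts was in 1 of these 3. In them Map1a ran from 5.61 to 8.998 CPM, Ecm1 from 33.0 to 46.9, Slc37a1 from 9.41 to 12.6 and Eepd1 from 21.7 to 26.9, against 7.35 to 12.1, 29.1 to 43.7, 9.81 to 16.1 and 20.7 to 30.7 in the 9 haemoglobin-high ones. Hearts overlapped for all 4 genes between FF_sham and FF_TAC (no overlap: 2.74% of genes higher, 3.3% lower) and between knockout and floxed sham hearts (3.23% higher, 3.55% lower), the latter with log2 fold changes of -0.02 for Map1a, 0.20 for Ecm1, -0.25 for Slc37a1 and -0.26 for Eepd1. After TAC, knockout against floxed was 1.71 for Map1a, 1.44 for Ecm1, 0.78 for Slc37a1 and -1.21 for Eepd1, with no overlap of hearts (6.76% of genes higher and 6.76% lower, with 14.3% called). Without FF_TAC 2, FF_TAC 3 and KO_sham 2 that contrast was 1.53, 1.58, 0.82 and -1.24 in the same order of genes. The TAC effect was then 1.48, 1.16, 0.61 and -1.005 in knockouts and -0.08, -0.28, -0.45 and -0.0059 in floxed hearts. With every library and a term for low haemoglobin, the TAC effect in knockouts was 1.63, 0.92, 0.60 and -0.93. Slc37a1 was not called in that edgeR fit (adjusted p = 0.065), which called 273 of all 15596 genes.

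With all 30 libraries on 1 TMM scale, KO_TAC had the highest mean of the 8 groups for Map1a, Ecm1 and Slc37a1 and the lowest for Eepd1. For Map1a the order was KO_TAC (25.7 ± 3.76 CPM, SD), PBS_sham (15.4 ± 4.77), PBS_TAC (12.3 ± 1.23), AAV_TAC (10.0 ± 1.10), FF_sham (9.32 ± 1.98), KO_sham (9.18 ± 2.06), AAV_sham (8.47 ± 2.30) and FF_TAC (7.99 ± 1.87). Of these neighbours, KO_TAC and PBS_sham, and PBS_TAC and AAV_TAC, differ by more than the larger SD of the pair. For Ecm1, KO_TAC (90.9 ± 15.7) and PBS_sham (72.4 ± 29.6) differ by less than the larger SD, and so do all later neighbours except KO_sham (42.3 ± 4.28) and FF_sham (36.7 ± 5.46). For Slc37a1 only KO_TAC (18.4 ± 1.52) and AAV_TAC (14.8 ± 1.64) at the top of the order differ by more than the larger SD. For Eepd1 the order ran from AAV_sham (31.8 ± 2.97) through AAV_TAC, PBS_sham, FF_sham, FF_TAC (27.1 ± 2.40), KO_sham (22.9 ± 1.58) and PBS_TAC (20.3 ± 1.02) to KO_TAC (11.6 ± 0.455), and the first step and the last 3 each exceed the larger SD. With each cohort on its own scale, Map1a and Eepd1 keep this order, and Ecm1 and Slc37a1 change it among the middle or lowest groups.

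The Map1 family holds 2 other genes, Map1b and Map1s. Map1b, the Map1 protein of growing neurons, had 51.5, 88.2, 63.97 and 33.8 CPM in KO_TAC and 12.0, 15.7, 12.9 and 19.0 in KO_sham, with no overlap. Its log2 fold change for TAC in knockouts was 1.99 ± 0.31 (SE, adjusted p = 0.00136), and its genotype-dependent response was 1.53 ± 0.43 with an adjusted p of 0.15. Within FF_TAC, the haemoglobin-low hearts had 21.1 and 24.0 CPM of Map1b and the others 10.6 and 9.17, and with a term for low haemoglobin the knockout value was 1.41, with an adjusted p of 0.060. Map1b was also high in PBS_sham 3, at 96.1 CPM, against 18.8 and 27.2 in the other PBS_sham hearts. Map1s, the third and widely expressed member of the family, ran from 17.6 to 21.2 CPM in KO_TAC and 16.6 to 20.96 in KO_sham (log2 0.09, -0.12 to 0.31). Per length, Map1a at 2.09 ± 0.301 CPM per kb in KO_TAC was below Map1b at 3.75 ± 1.44 and near Map1s at 2.48 ± 0.195.

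Microtubule-associated proteins and tubulins were examined as lists without the 4 genes. TAC in knockouts raised 14.3% and lowered 11.5% of all genes tested in edgeR. Of 18 microtubule-associated proteins, 4 rose (Map1b, Map6, Mapre1 and Mapre3) and 2 fell (Clasp1 and Clasp2, which anchor microtubule plus ends), with a median log2 fold change of 0.20 against 0.02 over all genes. Map6, which stabilises microtubules against cold, went from 6.07 ± 0.673 to 11.3 ± 1.86 CPM (SD, n = 4 each), and Mapre1, a plus-end binding protein, from 68.2 ± 2.51 to 107 ± 13.0. Of 20 tubulins and tubulin modifiers 8 rose and 0 fell, with a median of 0.30. Tubb3, the beta-tubulin typical of neurons, went from 1.64 ± 0.319 to 12.7 ± 5.73 CPM (log2 2.95 ± 0.34 SE), Tuba1c from 22.3 ± 6.12 to 58.9 ± 9.70 and Tubb6 from 31.7 ± 4.18 to 67.1 ± 15.7. With a term for low haemoglobin 1 gene of each list rose and none fell, Map6 (adjusted p = 0.0457) and Tubb3 (adjusted p = 0.00968), where 0.866% of all genes rose and 0.885% fell. Without FF_TAC 2, FF_TAC 3 and KO_sham 2 the counts were 3 higher and 1 lower of 18, and 7 higher and 0 lower of 20. That fit called 3815 of all genes for TAC in knockouts, against 4031 with every library, which is the background for the lists below too.

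**Figure D3:**
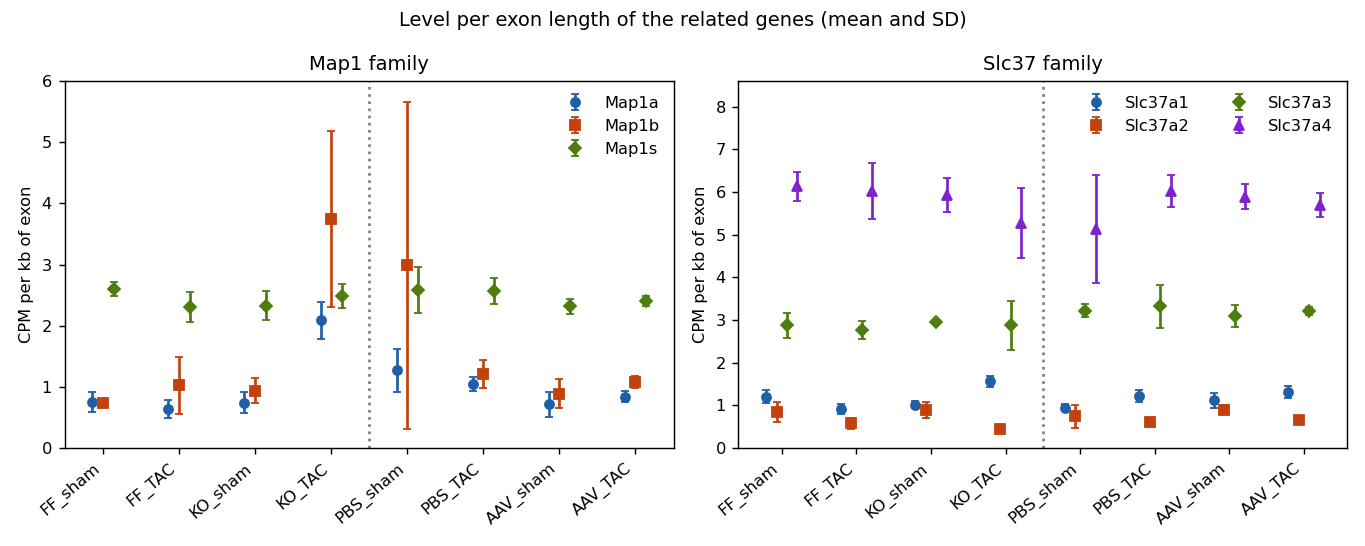
Mean level per kb of exon (CPM per kb, bars are SD over 3 or 4 hearts) of the Map1 and Slc37 genes in the 8 groups, with the floxed cohort left of the dotted line and the AAV9 cohort right of it. Map1a and Map1b are both higher in KO_TAC, the PBS_sham bar of Map1b spans 1 high heart, and Slc37a1 and Slc37a2 move apart in KO_TAC.

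The list for Ecm1 held matrix and latent TGF-beta genes. Of 14 genes, 6 rose with TAC in knockouts and 2 fell, with a median of 0.42. Thbs1, thrombospondin 1, which activates latent TGF-beta, went from 31.6 ± 40.4 to 229 ± 87.1 CPM (log2 2.86 ± 0.95 SE, adjusted p = 0.039). Its SD in KO_sham exceeds its mean, and without FF_TAC 2, FF_TAC 3 and KO_sham 2 its log2 fold change was 4.32. The ligands Tgfb2 and Tgfb1 went from 17.9 ± 2.24 to 62.5 ± 23.2 and from 33.4 ± 3.25 to 89.1 ± 24.6 CPM. Itgb6, an integrin chain that also releases TGF-beta, fell by 1.67 on the log2 scale, from 14.2 ± 2.72 to 4.43 ± 3.06 CPM, and the latent TGF-beta binding protein Ltbp1 fell by 0.63. With a term for low haemoglobin the list had 1 rise, Tgfb2 (adjusted p = 0.038), and no fall, and without the 3 libraries 6 rises and 1 fall.

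For Slc37a1 the list held its family and enzymes of glucose 6-phosphate. Of 19 genes, 3 rose with TAC in knockouts and 2 fell, near the share over all genes, with a median of 0.02. Gpi1 and Hk1, which use or make glucose 6-phosphate, had log2 fold changes of 0.65 (adjusted p = 0.0097) and 0.62 (adjusted p = 0.0081), and Gbe1, the glycogen branching enzyme, had 0.44 (adjusted p = 0.019). Slc37a2 was lower, at 2.88 ± 0.565 CPM in KO_TAC and 5.94 ± 1.20 in KO_sham (log2 -1.04 ± 0.23 SE, adjusted p = 0.0073), the opposite direction to its relative Slc37a1. Slc37a2 had log2 fold changes of -0.55 for TAC in floxed hearts (adjusted p = 0.42), -0.29 with saline (0.49) and -0.44 with the vector (0.70), and its genotype-dependent response was -0.50 (-1.19 to 0.20, adjusted p = 0.52). Pygm, muscle glycogen phosphorylase, fell by 0.33 on the log2 scale. Slc37a3 had -0.04 (95% interval -0.30 to 0.22) and Slc37a4, the glucose 6-phosphate transporter of glycogen breakdown and gluconeogenesis, -0.17 (-0.42 to 0.07). With a term for low haemoglobin 0 genes of this list were called by edgeR, where 273 of all 15596 genes were. In that fit 7 of the list had an unadjusted p under 0.05, from which nothing is read. Without the 3 libraries 4 rose and 1 fell.

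Both settings known for Eepd1 were covered by lists. Of 13 liver X receptor targets and sterol efflux genes, 0 rose and 3 fell with TAC in knockouts, with a median of -0.07. These were Rxra, the partner receptor of the liver X receptors (61.2 ± 3.93 to 38.9 ± 6.90 CPM), the phospholipid transfer protein Pltp (36.5 ± 4.98 to 23.6 ± 7.80) and the phospholipid enzyme Lpcat3 (26.8 ± 0.621 to 20.0 ± 2.06). Of 12 replication fork repair genes measured, Rbbp8, which starts DNA end resection, rose from 6.00 ± 0.399 to 16.9 ± 5.49 CPM, and the nuclease Dna2 fell but stayed under 2 CPM. With a term for low haemoglobin edgeR called 0 genes of either list, where it called 273 of all 15596 genes. In that fit 4 and 0 of them had an unadjusted p under 0.05, from which nothing is read. Without the 3 libraries the counts were 0 higher and 3 lower of 13, and 1 higher and 1 lower of 12.

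In the contrast that chose the 4 genes, edgeR called 0 of the 96 genes of these 6 lists, with 17 at an unadjusted p under 0.05 (13.1% of all genes) and 7 called by DESeq2 (2.42% of all genes), and without FF_TAC 2, FF_TAC 3 and KO_sham 2 it called 11 (5.06% of all genes). For TAC in floxed hearts, which called no gene in the whole table (0%), it called 0 of 96, with 20 at an unadjusted p under 0.05 (11.1% of all genes) and 1 called by DESeq2 (1.08% of all genes). In the 6 comparisons of the AAV9 cohort it called 0 of 95, where it called 0.00635% to 0.908% of all genes. Of the 95, 4 to 24 lay at an unadjusted p under 0.05, and the shares of all genes there are those given above with the 4 genes. DESeq2 called 2 genes of the lists for TAC with saline and 5 for TAC over both injections, and 370 and 712 of all 15745 genes. It called 2 genes of the lists for the vector in sham hearts and 0 in the other 3, and 373 and 16 to 117 of all genes.

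Markers of other cells moved with KO_TAC. The summed fibroblast markers ran from 2063 to 2306 CPM in KO_TAC and from 966 to 1832 in the 12 other floxed-cohort hearts, with none of the 7 at 0 in any group. The most abundant markers weigh most in that sum. The mean of log2(CPM + 1) over the 7 overlapped, at 6.92 to 7.39 in KO_TAC and 6.56 to 7.08 in KO_sham. Of the 7, 3 were called higher with TAC in knockouts and 0 lower (14.3% and 11.5% of all genes), with a median log2 fold change of 0.22. The 5 atrial markers (Myl7, Myl4, Sln, Nppa, Bmp10) summed to 4504 to 17230 CPM against 16.2 to 5243. Nppa, which the loaded ventricle also expresses, carried that sum, at 4500 to 8749 CPM against 14.4 to 2443, while Myl7, Myl4 and Sln had medians of 0.681, 5.84 and 0.117 CPM in KO_TAC and were high in KO_TAC 1. The 5 endothelial markers (Pecam1, Cdh5, Kdr, Tek, Tie1) summed to 446 to 630 CPM against 624 to 892. Of these 5 endothelial markers, 4 were called lower with TAC in knockouts and 0 higher, with a median log2 fold change of -0.55. The 6 cardiac muscle markers summed to 36669 to 51457 CPM against 42571 to 50666, with 1 called higher and 2 lower. The 12 early response genes, which include Fos, summed to 1950 to 4782 CPM in KO_TAC. High sums were found in the same libraries as low haemoglobin, with 3106, 4209 and 3841 CPM in FF_TAC 2, FF_TAC 3 and KO_sham 2 and 153 to 219.96 in the 9 other hearts. Macrophage markers overlapped, at 236 to 302 against 140 to 353 CPM, T cell and neutrophil markers reached at most 2.56 CPM, and Schwann cell and neuron markers ran from 5.66 to 31.4 against 5.03 to 21.4. The part of these markers in the levels of the 4 genes was not tested.

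Among the 4 genes, Map1a and Ecm1 varied together in the cohort that did not choose them. Over the 14 AAV9-cohort hearts, log2 CPM of Map1a and Ecm1 had Pearson's r of 0.893 (permutation p = 2e-05) and Spearman's rho of 0.934 (permutation p = 1e-05, the smallest that 100000 resamples can give). Both tests are two-sided, and adjusted over the 6 pairs of genes the values were 0.00012 and 6e-05. The permutations shuffled hearts regardless of group, so differences between groups that both genes share enter these p-values. Without PBS_sham 3 and AAV_sham 4, the hearts farthest from the median of Map1a, r was 0.859 over 12 hearts. With group means removed it was 0.811, a value that was not tested. PBS_sham 2 and PBS_sham 3, the hearts highest in Ecm1, were not left out together for this pair. In the floxed cohort KO_TAC forms a cluster of its own, so it was left out: over the other 12 hearts r was 0.189 (permutation p = 0.55) and rho 0.315.

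The other pairs were weaker in the AAV9 cohort, and none passed adjustment over the 6 pairs. Map1a and Eepd1 had r of -0.571 (permutation p = 0.032, adjusted 0.097) and rho of -0.626, and without PBS_sham 3 and AAV_sham 4 r was -0.528. Ecm1 and Eepd1 had r of -0.483 (permutation p = 0.078, adjusted 0.16), and -0.628 without PBS_sham 2 and PBS_sham 3. Slc37a1 had r of -0.292 with Map1a, -0.389 with Ecm1 and -0.128 with Eepd1, and without the 2 farthest hearts of each pair -0.265, 0.0374 and -0.380, so the relation with Ecm1 rests on PBS_sham 2 and PBS_sham 3. In the floxed cohort without KO_TAC, Map1a and Slc37a1 had r of 0.676 (permutation p = 0.016, adjusted 0.095) and rho of 0.706. The fibroblast markers differ over the same hearts, and their part was not tested.

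**Figure D4:**
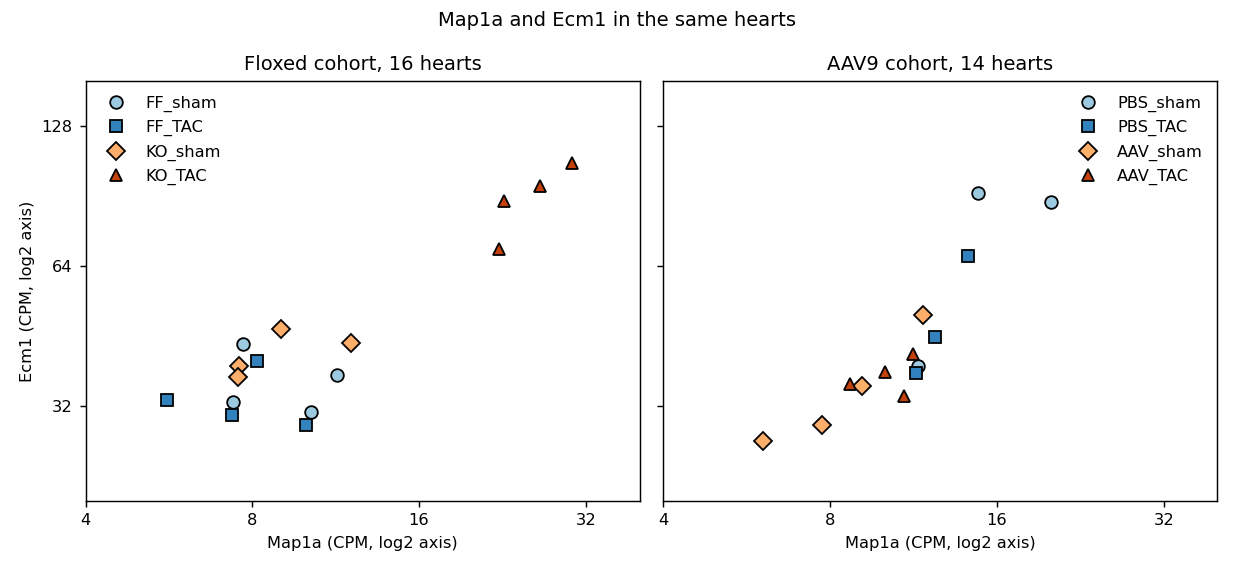
Map1a against Ecm1 in each heart (CPM, both axes on a log2 scale), with the 16 floxed-cohort hearts on the left and the 14 AAV9-cohort hearts on the right. The 4 KO_TAC hearts form a separate cluster, while in the AAV9 cohort hearts with more Map1a have more Ecm1, with AAV_sham 4 lowest and PBS_sham 2 and PBS_sham 3 highest in Ecm1.

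The genes most alike each member were found by Pearson's r of log2 CPM over the 16 floxed-cohort hearts among 13502 genes, a measure that the 4 KO_TAC hearts dominate. For Ecm1 they were Vat1 (r = 0.980), a vesicle amine transport protein that is also among the 7 genes called for the genotype-dependent response, the ribosome-binding protein Rrbp1 (0.969) and Ahnak2 (0.950). Over the 14 AAV9-cohort hearts these had r of 0.832, 0.763 and 0.757 with Ecm1, above 98.4%, 95.8% and 95.6% of genes. For Map1a they were Umps, an enzyme of pyrimidine synthesis (0.940), the matrix protein Comp (0.931) and Vat1 (0.929). In the AAV9 cohort these had -0.430, 0.738 and 0.894, above 31.2%, 96.0% and 99.8% of genes. For Slc37a1 they were Map1a (0.892), Parm1 (0.880) and Ctr9 (0.874), with -0.292, 0.340 and -0.306 in the AAV9 cohort, above 29.5%, 68.3% and 28.7% of genes. For Eepd1 they were the kinase Nim1k (0.942), the fat storage protein Fitm1 (0.942) and Fsd2 (0.939). These had 0.601, 0.287 and 0.371 in the AAV9 cohort, above 98.5%, 84.0% and 90.6% of genes. Vat1 went from 44.4 ± 2.77 CPM in KO_sham to 79.6 ± 8.17 in KO_TAC (SD, n = 4 each), and from 42.1 ± 2.67 in FF_sham to 39.4 ± 2.81 in FF_TAC.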

How the data were processed

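Poly(A) RNA of 30 mouse hearts was sequenced with a strand-marking kit, per the labels' protocols. The authors deposited 1 table of whole-number counts per gene and library. Per the submitters' processing notes, HISAT2 2.1.0 and featureCounts of Subread 1.5.1 were used with GRCm38. The strand setting and annotation release are not given in the sources used here. Of 55487 identifiers, 55141 were matched to a symbol in GENCODE M21, and the rest held 0.0192% of counts. Because KO_TAC titles carry the words of both surgeries, the genotype and treatment labels and column names decided that group.

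Each cohort was fitted with 1 mean per group by edgeR 4.0.16 (R 4.3.3): TMM, filterByExpr and the quasi-likelihood F test, two-sided, with Benjamini-Hochberg adjustment over 15596 (floxed) or 15745 (AAV9) genes, called under 0.05. The fit was also run on simulated counts with known changes. These were drawn without the differences between libraries described above, so nothing about these hearts is read from that run. The error of a log2 fold change is its size divided by the square root of F. Exon lengths are the union of GENCODE M21 exons, and promoters come from RefSeq (GRCm38.p6), with 4 of 4 genes matched.

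The 4 genes and the lists were chosen with earlier results of these data known, and the lists are no independent evidence. Genes named from a list are the family members and up to 3 called rises and 3 called falls by size with at least 5 CPM in the higher group, besides those named to complete a count. Relations over hearts used log2 CPM (prior count 2) and 100000 permutations of hearts regardless of group. Alternatives were DESeq2 1.42.0, RLE scaling, no filter, a replicate block, a term for haemoglobin under 100 CPM, leaving out FF_TAC 2, FF_TAC 3 and KO_sham 2, and leaving out each library.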

Additional observations from a re-analysis of the deposited data

Results flagged for a closer look

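Slc37a1 in AAV_TAC had 1 heart far from the others, AAV_TAC 2, at 17.6 CPM against 14.02 to 14.6 in the other 3. Over the 24 sets of 4 hearts examined in this way, chance alone puts about 1 in 20 there. Without it the vector effect in TAC hearts was 0.01 on the log2 scale, against 0.09 with it.

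The TAC effects of knockout and floxed hearts differed for all 4 genes, by 1.73 for Map1a, 1.24 for Ecm1, 1.03 for Slc37a1 and -0.95 for Eepd1 on the log2 scale. This is the contrast the genes were chosen on.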

How the results depend on the processing

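The sign of the genotype-dependent response held for all 4 genes under every alternative. With each library left out it ran from 1.59 to 1.89 for Map1a, 1.13 to 1.34 for Ecm1, 0.954 to 1.12 for Slc37a1 and -1.01 to -0.889 for Eepd1, but by the same threshold the genes would have been chosen in only 3, 3, 3 and 5 of 16 such fits, none of the 4 with the haemoglobin term, and not Slc37a1 without a filter. This describes the choice and is no test of the genes. The counts of genes called moved widely, and the cause was not tested. For the genotype-dependent response they were 7 in the fit reported, 377 with DESeq2, 17 without a filter, 0 with the haemoglobin term, 825 without the 3 libraries and 0 to 215 with 1 library left out. For TAC in knockouts they were 4031, 273 with the haemoglobin term and 1956 to 6441 with 1 library left out. For TAC in floxed hearts they were 0 (1733 at an unadjusted p under 0.05), 168 with DESeq2 and 0 to 27. In the AAV9 cohort, the counts for TAC with saline, TAC with the vector, TAC over both, the vector in sham, the vector in TAC and the vector-dependent response were 5, 1, 143, 2, 6 and 1. They were 370, 117, 712, 373, 35 and 16 with DESeq2, and 112, 29, 329, 182, 14 and 5 without a filter. With 1 library left out they ran 0 to 1796, 0 to 111, 15 to 1155, 1 to 2821, 1 to 56 and 0 to 1. The highest of these came without PBS_sham 1 or PBS_sham 3. In the floxed cohort the highest counts came without KO_TAC 1 for the genotype-dependent response, without KO_TAC 1 for TAC in knockouts (lowest without KO_TAC 3) and without FF_TAC 1 for TAC in floxed hearts.

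Same-numbered hearts of different groups had r between their deviations of -0.373 to 0.454 over 24 pairs in the floxed cohort (median 0.00655). In the AAV9 cohort r was -0.407 to 0.396 over 19 pairs (median 0.0593). Pairs with different numbers ran from -0.447 to 0.492 (median 0.0082) and from -0.445 to 0.548 (median -0.0104). The numbers were not used for pairing in the fit reported. These correlations cannot exclude a shared litter or surgery day. A replicate block gave 19 genes for the genotype-dependent response and, in the order above for the AAV9 cohort, 2, 0, 24, 0, 7 and 2.

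Signs near 0 changed. Eepd1 for TAC in floxed hearts was 0.000179 with the haemoglobin term and ran from -0.0953 to 0.0304 with 1 library left out. Map1a for knockout against floxed in sham was 0.0277 with the haemoglobin term and ran from -0.196 to 0.0981. Ecm1 for TAC with the vector ran from -0.0417 to 0.287, and Map1a for TAC over both injections from -0.108 to 0.0888. Counts of 93 or more reads lie behind each Map1a value of the floxed cohort, so depth limits these values less than the spread between hearts.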
